A study of Equus caballus with 2 samples.

Results

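The genes described here are the 9 interferon receptor and JAK-STAT genes IFNAR1, IFNAR2, IFNGR1, IFNGR2, JAK1, JAK2, STAT2, IRF1 and IRF9. They were chosen by symbol with earlier results of these data known, and each symbol was found on 1 of the 21426 genes that both libraries list. The cells were primary equine endometrial fibroblasts at passage 3, taken from 4 mares with healthy or only mildly fibrotic endometrium and grown on collagen-coated hydrogels. For 24 h all cells were kept in medium with 0.1% BSA in place of serum. The control cells received nothing further, and the TGF-β1 cells received 10 ng/ml human recombinant TGF-β1, a growth factor that drives fibroblasts towards a contractile, matrix-producing state. Before loading, the fibroblasts of all 4 mares were mixed within a group, and 1 droplet library was made from each mixture. Molecules in it are counted once by their unique molecular identifiers (UMIs).

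Interferons reach the fibroblast through paired receptor chains. Type I interferons bind IFNAR1 and IFNAR2, which carry the kinases TYK2 and JAK1 and pass the signal to a complex that holds STAT2 and IRF9. Interferon gamma, the type II interferon, binds IFNGR1 and then IFNGR2, which carry JAK1 and JAK2, and IRF1 is a transcription factor that this route induces. In the uterus of mammals these routes are known for the response of the endometrium to infection and, in several species, to early pregnancy.

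A cell was kept if it had no fewer than 20000 UMIs and 3500 genes and if mitochondrial transcripts made up less than 4% of its UMIs, which left 3865 control cells and 4513 cells treated with TGF-β1. They held 210497250 and 219731144 UMIs, with medians of 50313 and 43142 UMIs per cell. The libraries shared 6 deposited barcodes, of which 2 were among the kept cells of both. Cells were not assigned to mares here and doublets were not removed. With 1 library per group there is no replicate, so no test was made, and treatment and library preparation cannot be told apart. All intervals are 95% intervals that cover counting error only. Levels are counts per 1000000 UMIs (CPM), and changes are log2 ratios of TGF-β1 to control CPM with no pseudocount.

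The fibroblast label was checked against marker genes. All 8 fibroblast markers, among them VIM, COL1A1 and DCN, were found, with summed levels of 21499 CPM in control and 21707 CPM in TGF-β1 cells. Of these, 4 were lower and 4 higher after TGF-β1, with log2 ratios from -1.60 for PDGFRA, -0.97 for VIM and -0.71 for PDGFRB to 0.26 for COL1A2 and 0.33 for COL3A1. All 6 endothelial markers were under 1 CPM in both libraries. Of 9 immune markers, 8 were under 1 CPM, CD3D had 0 UMIs in both libraries and PTPRC had 0 in the TGF-β1 library, and CD68 carried nearly all of the summed 43.0 and 43.4 CPM. Of 6 epithelial markers, EPCAM and CDH1 were near 0, while KRT7 and KRT8 made up most of the summed 134 CPM in control and 12.3 CPM in TGF-β1 cells. The 9 cycling markers summed to 53.6 and 30.4 CPM. The part of KRT7, KRT8 and the cycling markers in the values below was not tested. Levels within groups of cells are given instead, and ratios at equal cluster shares are among the alternatives at the end.

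Of the 9 genes, 8 were lower and 1, STAT2, was higher in the TGF-β1 library. The median log2 ratio over the 9 was -0.54, beside -0.01 over the 12116 genes whose mean level reached 1 CPM and 0.0082 over the 7658 that reached 10 CPM. At 10 CPM or more, 6 of the 9 genes were measured, and 2 of these, IFNGR2 and IRF9, were more than 2-fold lower, where 2.13% of all genes at that level were. None of the 6 was more than 2-fold higher, beside 2.3% of all genes. The same 2 genes were the ones more than 1.5-fold lower, beside 6.48% of all genes. With the minimum at 1 CPM, all 9 genes were measured and 3 were more than 2-fold lower, IFNAR2 being added, beside 3.46% of all genes. At that minimum 4 were more than 1.5-fold lower, IRF1 being added, beside 9.36%. At this depth counting intervals are narrow for most genes. The interval lay below 0 for 8 of the 9 genes, beside 42.2% of all genes with at least 1 CPM, and above 0 for 1 gene, beside 39.5%, so an interval on 1 side of 0 was common to most genes at this minimum.

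**Figure D1:**
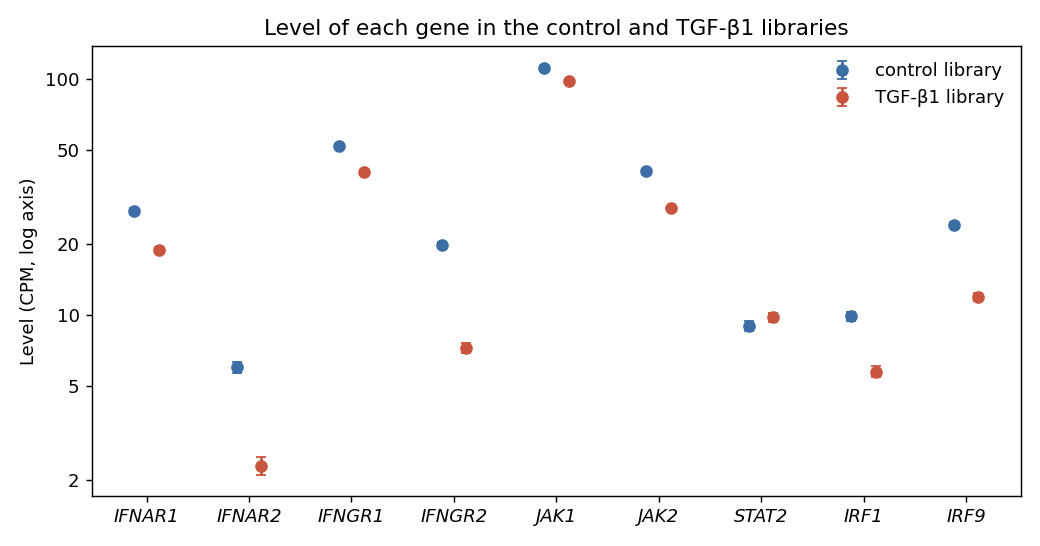
Level of each of the 9 genes in CPM, on a log axis, in the control library (blue) and the TGF-β1 library (red), with exact 95% Poisson counting intervals as bars. The TGF-β1 point is the lower one for 8 genes, with the widest gaps at IFNAR2 and IFNGR2, and STAT2 is the exception.

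Both chains of the type I receptor were lower, and IFNAR2 by more than its partner. IFNAR2, the chain that binds type I interferon with high affinity and carries JAK1, was the least abundant of the 9 genes, at 6.02 CPM in control (1268 UMIs) and 2.30 CPM in TGF-β1 cells (505 UMIs). This is a log2 ratio of -1.39 (-1.54 to -1.24), or 2.62-fold lower. IFNAR1, the chain that carries TYK2, stood at 27.6 CPM in control (5809 UMIs) and 18.9 CPM in TGF-β1 cells (4162 UMIs), a log2 ratio of -0.54 (-0.60 to -0.49). The difference between the log2 ratios of IFNAR2 and IFNAR1 was -0.85 (Wald interval -1.01 to -0.69). For each UMI of IFNAR2 there were 4.58 UMIs of IFNAR1 in control and 8.24 in TGF-β1 cells, so the balance of transcripts moved towards IFNAR1.

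The chains of the interferon gamma receptor moved apart in the same manner. IFNGR2, the chain that carries JAK2 and completes the signalling receptor, went from 19.8 CPM (4169 UMIs) to 7.29 CPM (1602 UMIs), and its log2 ratio of -1.44 (-1.53 to -1.36) was the lowest of the 9. Counted from the lowest log2 ratio, it ranked 72 of the 7658 genes with at least 10 CPM. IFNGR1, the ligand-binding chain, was the second most abundant of the 9 and stood at 52.0 CPM in control (10941 UMIs) and 40.5 CPM in TGF-β1 cells (8897 UMIs), a log2 ratio of -0.36 (-0.40 to -0.32). IFNGR2 was lower relative to IFNGR1 by a log2 difference of -1.08 (-1.17 to -0.99). The UMIs of IFNGR1 per UMI of IFNGR2 went from 2.62 to 5.55.

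Both kinases among the 9 genes were lower. JAK1, which serves both receptors, was the most abundant of the 9 genes in both libraries and the least lowered, at 111.5 CPM in control (23476 UMIs) and 97.7 CPM in TGF-β1 cells (21467 UMIs). Its log2 ratio was -0.19 (-0.22 to -0.16), a decrease that 24.7% of genes with at least 10 CPM exceeded. JAK2, the kinase of IFNGR2 and of several cytokine and hormone receptors, had 40.8 CPM in control (8580 UMIs) and 28.3 CPM after treatment (6215 UMIs), and its log2 ratio was -0.53 (-0.57 to -0.48). The log2 ratio of JAK2 lay 0.34 below that of JAK1 (-0.34, -0.39 to -0.28). TYK2, the kinase of IFNAR1 and not among the 9, stood at 36.6 CPM in control and 35.4 CPM in TGF-β1 cells, with a log2 ratio of -0.05 (-0.10 to -0.0038).

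The partners within the type I transcription complex went opposite ways. IRF9, its DNA-binding subunit, went from 24.1 CPM (5075 UMIs) to 12.0 CPM (2631 UMIs), and its log2 ratio of -1.01 has an interval of -1.08 to -0.94 that spans the 2-fold limit. STAT2, its transactivating subunit, was slightly higher, at 8.99 CPM in control (1893 UMIs) and 9.79 CPM in TGF-β1 cells (2151 UMIs), a log2 ratio of 0.12 (0.03 to 0.21). IRF9 was therefore lower relative to STAT2 by a log2 difference of -1.13 (-1.24 to -1.02), the widest gap of the partner pairs. There were 0.373 UMIs of STAT2 per UMI of IRF9 in control and 0.818 in TGF-β1 cells.

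IRF1, the transcription factor named for its induction by interferon, stood at 9.87 CPM in control (2078 UMIs) and 5.78 CPM in TGF-β1 cells (1269 UMIs). Its log2 ratio was -0.77 (-0.88 to -0.67), or 1.71-fold lower. IRF2, which binds the same elements and is known to oppose IRF1, had a log2 ratio of -0.72 (-0.76 to -0.67), and the difference between both ratios, -0.05, had an interval that includes 0 (-0.17 to 0.06). Their balance was 5.00 UMIs of IRF2 per UMI of IRF1 in control and 5.19 in TGF-β1 cells.

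The order of the 9 genes by captured UMIs was nearly the same in both libraries. In control it was JAK1, IFNGR1, JAK2, IFNAR1, IRF9, IFNGR2, IRF1, STAT2 and IFNAR2, and in TGF-β1 cells STAT2 came before IFNGR2 and IRF1 with the rest in the same order. The counting intervals of neighbours in this order did not overlap in either library. The kit counts transcripts at their 3′ ends and the values are not per length, so this is an order of captured molecules, and the spread between cultures was not measured.

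The share of single cells with each transcript was then counted. Each kept cell was thinned to 20000 UMIs, because the median depth was higher in control. A cell counted as positive if it had at least 1 UMI of the gene. The amount of free RNA could not be measured here, because the culture holds no cell type known to lack these genes, and a share is read beside the CPM.

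The share of IFNGR2-positive cells went from 31.6% (exact binomial interval 30.1% to 33.1%) in control to 12.8% (11.8% to 13.8%) in TGF-β1 cells. Before thinning these shares were 57.1% and 25.7%. Poisson counts of the same mean would give 34.1% and 13.5%, so at this depth the shares do not tell fewer cells with the transcript from less of it in each cell. For IFNAR2 the thinned share was 10.9% (9.98% to 12.0%) in control and 3.88% (3.33% to 4.48%) in TGF-β1 cells, and the unthinned shares were 22.3% and 9.13%. For IRF9 it was 36.4% (34.9% to 38.0%) and 20.5% (19.3% to 21.7%), against 65.5% and 39.1% unthinned. The intervals of the 2 libraries did not overlap for any of these genes.

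The other genes differed by a smaller ratio of shares. IFNAR1 was found in 41.2% of control and 31.0% of treated cells, IFNGR1 in 63.1% and 55.9%, JAK1 in 87.0% and 83.6%, JAK2 in 47.5% and 40.0%, and IRF1 in 16.4% and 10.1%. Unthinned, the same 5 genes reached 71.8% and 55.3%, 90.1% and 82.1%, 98.5% and 96.7%, 73.1% and 62.7%, and 34.5% and 21.6%. Each was less frequent in TGF-β1 cells with intervals apart. For STAT2 the share was 15.5% (14.4% to 16.7%) in control and 17.2% (16.1% to 18.3%) in treated cells, with overlapping intervals, and its unthinned shares of 35.5% and 34.7% stood in the reverse order. The higher STAT2 level is thus small at the level of cells.

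**Figure D2:**
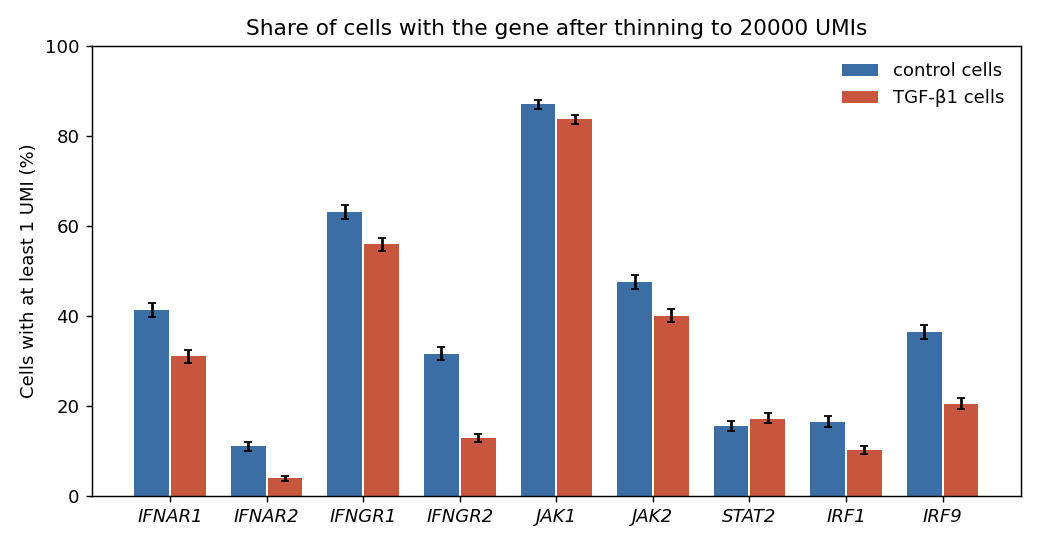
Percentage of cells with at least 1 UMI of each gene after every kept cell was thinned to 20000 UMIs, in control (blue) and TGF-β1 cells (red), with exact 95% binomial intervals. The TGF-β1 bar is the shorter one for 8 genes, with 31.6% and 12.8% for IFNGR2, and STAT2 alone has overlapping intervals.

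The spread of each gene over the cells was set beside that of Poisson counts. The Fano factor, the variance of the thinned UMI count over its mean, is 1 for Poisson counts and had a median of 1.15 in control and 1.14 in TGF-β1 cells over the genes with at least 10 CPM. JAK2 had 1.65 in control, above 84.7% of these genes, and 1.26 in TGF-β1 cells, above 70.2%. A Poisson count of the same mean would give 55.6% JAK2-positive control cells, where 47.5% were found, and up to 13 UMIs were counted in 1 thinned control cell. The other 8 genes had Fano factors from 1.09 to 1.26 in control and from 1.00 to 1.21 in TGF-β1 cells.

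Partner genes were next counted in the same cell. IFNGR1 and IFNGR2 together were found in 20.8% (19.5% to 22.1%) of thinned control cells and in 7.33% (6.59% to 8.13%) of TGF-β1 cells. IFNAR1 and IFNAR2 together were found in 5.46% (4.76% to 6.22%) and 1.22% (0.919% to 1.58%). STAT2 and IRF9 together were found in 6.42% (5.66% to 7.24%) and 3.30% (2.80% to 3.87%). Cells in which both partners were seen were thus fewer in the TGF-β1 library for each of these pairs.

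A wider set was also counted. All 4 genes of the interferon gamma route (IFNGR1, IFNGR2, JAK1 and JAK2) were detected in 354 of 3865 control cells, 9.16% (8.27% to 10.1%), and in 103 of the 4513 treated cells, 2.28% (1.87% to 2.76%). All 5 of the type I route (IFNAR1, IFNAR2, JAK1, STAT2 and IRF9) were detected in 10 control cells, 0.259% (0.124% to 0.475%), and in 1 TGF-β1 cell, 0.0222% (0.000561% to 0.123%). At 20000 UMIs a cell without a UMI may still express the gene, so these shares are of detected transcripts and not of cells able to respond.

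Most joint shares were close to what the single shares give when multiplied. For IFNGR1 and IFNGR2 the observed share over that product was 1.04 (0.979 to 1.11) in control and 1.03 (0.921 to 1.14) in TGF-β1 cells. For JAK1 and JAK2 it was 1.01 (0.974 to 1.05) and 1.00 (0.960 to 1.04). For IFNAR1 and IFNAR2 it was 1.21 (1.06 to 1.38) in control and 1.02 (0.766 to 1.32) in TGF-β1 cells. Over all 36 pairs of the 9 genes the median ratio was 1.03 in both libraries, the interval lay above 1 for 5 pairs in control and 2 in TGF-β1 cells, and it lay below 1 for none. The highest ratio in both libraries was that of IFNAR2 with IRF1, at 1.31 (1.06 to 1.61) in control and 1.86 (1.28 to 2.61) in TGF-β1 cells, where it rests on 33 cells. These intervals leave out the error of the single shares and of the thinning draw. With another draw the ratio of IFNAR1 and IFNAR2 was 1.17 in control and 1.29 in TGF-β1 cells, so no difference in pairing between the libraries is read from them.

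**Figure D3:**
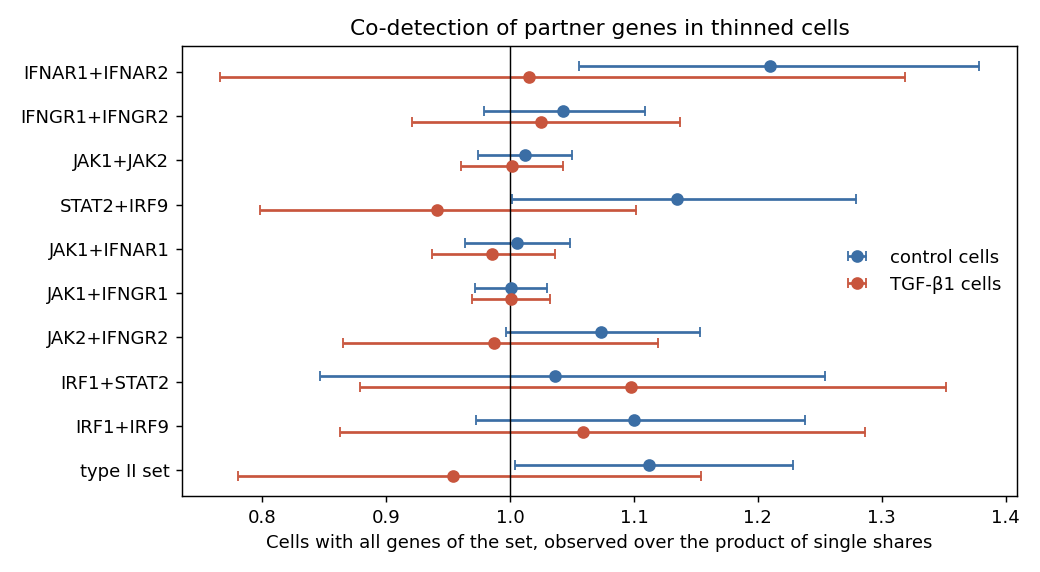
Observed share of thinned cells with every gene of a pair, or of the type II set, divided by the product of the single shares, in control (blue) and TGF-β1 cells (red), with 95% intervals of the observed share. The type II set is IFNGR1, IFNGR2, JAK1 and JAK2, the type I set with its 10 and 1 cells is not drawn, and of the points drawn the farthest from 1 is IFNAR1 with IFNAR2 in control at 1.21.

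Counted together, fewer of the 9 genes were seen per cell after TGF-β1. At 20000 UMIs the mean was 3.50 of the 9 genes (SD 1.38 over cells) in control and 2.75 (SD 1.21) in TGF-β1 cells. The share of cells with at least 5 of the genes was 23.3% (22.0% to 24.7%) in control and 7.40% (6.65% to 8.20%) after treatment. The share with none was 0.569% (0.357% to 0.861%) in control and 1.44% (1.11% to 1.83%) after treatment. All 9 were seen in 2 control cells and in 0 of the 4513 treated cells. If the genes were detected independently of each other, the SDs would be 1.28 and 1.18. The number of genes seen thus varied slightly more between cells than that in both libraries.

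To see whether the changes held across groups of cells, the kept cells of both libraries were clustered again. This gave 8 clusters with at least 50 cells of each library. The study reports a cluster made up almost only of cells from a single mare. Mares were not assigned here, so a cluster can stand for a mare and not a kind of fibroblast. The clusters are called by number. JAK2, alone of the 9 genes, was among the variable genes used to build them, so levels by cluster are descriptions. Of the 72 log2 ratios of the 9 genes in the 8 clusters, 67 were below 0, or 93.1%, beside 51.7% of the cluster ratios of all genes with at least 1 CPM. All the genes but STAT2, 8 of 9, were lower in every cluster, beside 24% of all genes with a ratio in each.

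IFNGR2, alone of the 9, was more than 2-fold lower in each of the 8 clusters, which 0.945% of all genes were, with log2 ratios from -1.61 in cluster 5 to -1.08 in cluster 6. IFNAR2 was lower in all 8 and more than 2-fold in 7, from -2.13 in cluster 6, which rests on 51 and 12 UMIs, to -0.92 in cluster 3. IRF9 was lower in all 8 and more than 2-fold in 5, from -1.35 in cluster 5, led by CFD and CRABP2, to -0.61 in cluster 1, led by FGF14 and NPFFR2. The decrease of these 3 genes was therefore seen in every cluster, including cluster 6, whose leading genes CENPF and CDC20 are known from mitosis.

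IRF1 was lower in 8 clusters, by a log2 ratio of -1.52 in cluster 5 to -0.59 in cluster 7, where the interval includes 0. JAK1 was lower in 8, from -0.42 to -0.10. JAK2 was lower in 8 with intervals below 0 in 6, from -0.81 in cluster 4 to -0.21 in cluster 6. IFNAR1 and IFNGR1 were lower in 8 with intervals below 0 in 7, from -0.74 to -0.11 and from -0.45 to -0.15, and both changed least in cluster 6. STAT2 was lower in 3 clusters and higher in 5, with log2 ratios from -0.04 to 0.25. The interval of STAT2 lay above 0 in clusters 1 and 3 only.

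**Figure D4:**
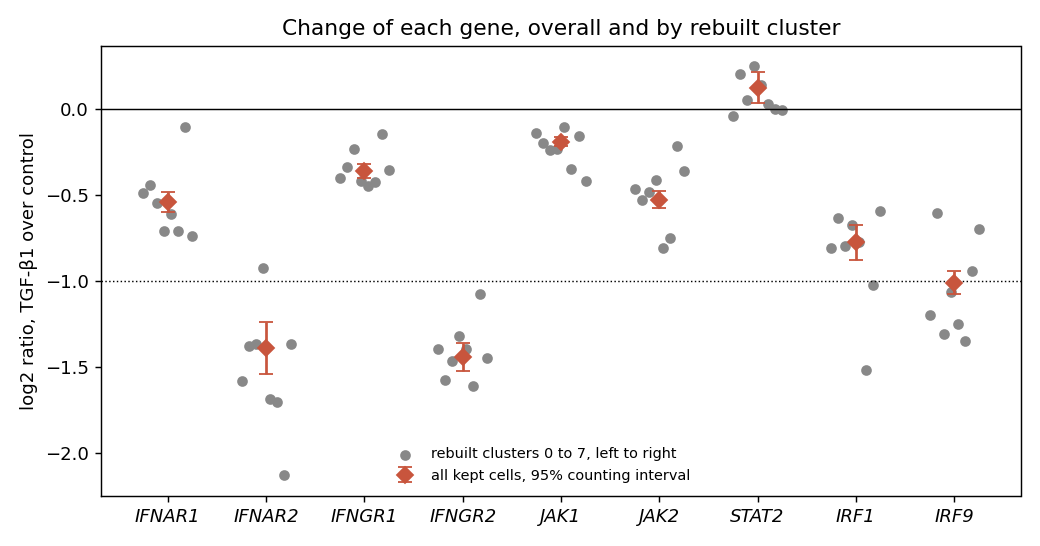
Change of each gene (log2, TGF-β1 over control) over all kept cells (red diamonds, exact 95% counting intervals) and in each of the 8 rebuilt clusters (grey points, 0 to 7 from left to right). The dotted line marks a 2-fold decrease, which IFNGR2 passed in 8 clusters and IFNAR2 in 7, and STAT2 stays near 0.

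The gaps between partners were also present within clusters. IFNAR2 was lower relative to IFNAR1, IFNGR2 relative to IFNGR1, and IRF9 relative to STAT2, in 8 of 8 clusters each. For IFNGR2 and IFNGR1 the log2 difference ran from -0.90 to -1.24 over the clusters. For JAK2 relative to JAK1 it was lower in 7 of 8, and ran from 0.06 to -0.71.

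JAK2 also varied most between clusters within a library. In control it ran from 14.3 CPM in cluster 5 to 57.8 CPM in cluster 2, led by COL4A3 and FREM1, a 4.06-fold range, and in TGF-β1 cells from 8.47 to 41.4 CPM in the same clusters, a 4.88-fold range. IFNGR2 ran 3.08-fold in control, from 12.3 CPM in cluster 6 to 38.1 CPM in cluster 7. IFNGR1, at 1.44-fold, and JAK1, at 1.46-fold, were the most even in control. Cluster 5 held the least JAK1, JAK2, IFNAR2 and STAT2 in both libraries, and it held the most IRF9 in control, at 37.2 CPM.

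The genes whose levels over the clusters were most like those of each gene with at least 10 CPM were found by Pearson's r over 16 points, the 8 clusters in both libraries, centred within each library, among 7213 genes. The points share libraries and cells, and r is a description. JAK2 was most like LANCL2, ADGRA3 and MARCHF7, each with r = 0.99, and JAK1 most like CNOT6L, IST1 and SGK3, each with r = 0.97. IFNAR1 was most like SLC39A14 (r = 0.96), ITGB5 and PI4K2A. IFNGR1 was most like BECN1 (r = 0.95), MIP-2BETA and KLHDC2, and IFNGR2 most like PTGR1 (r = 0.94), CFAP300 and SAT1. IRF9 was most like C1R (r = 0.87), BLOC1S1 and CDK10. The log2 ratios of these genes between the libraries were not used to choose them.

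Some groups of cells marked by a single transcript carried other amounts of the 9 genes. Among control cells, the 1734 with CFD, a complement protease, had more of 8 of the 9 genes at equal depth, from a log2 ratio over cells without it of 0.46 (0.25 to 0.67) for IRF1 to 0.13 (0.01 to 0.25) for IFNAR1, and STAT2 differed by -0.03 (-0.25 to 0.19). The 174 control cells with VCAM1, an adhesion molecule, had more of all 4 receptor chains, IFNGR2 (0.64, 0.35 to 0.92), IFNAR2 (0.60, 0.05 to 1.11), IFNAR1 (0.36, 0.08 to 0.62) and IFNGR1 (0.25, 0.05 to 0.45). They also had more JAK2 (0.50, 0.28 to 0.71) and less STAT2 (-0.79, -1.55 to -0.11), and for JAK1, IRF1 and IRF9 the interval included 0. The 972 control cells with KRT8 had less IFNGR2 (-0.26, -0.43 to -0.09), IFNAR1 (-0.22, -0.37 to -0.07) and JAK1 (-0.09, -0.16 to -0.02), and for the other 6 genes the interval included 0. In the TGF-β1 library, the 1021 cells with AREG, an epidermal growth factor receptor ligand, had less IRF1 (-0.46, -0.81 to -0.13) and JAK2 (-0.17, -0.31 to -0.04) and more STAT2 (0.27, 0.05 to 0.50). The 1789 with IGFBP3, a binding protein of insulin-like growth factors, had more IFNGR2 (0.25, 0.02 to 0.48) and less JAK2 (-0.15, -0.26 to -0.03). In each of these TGF-β1 groups the interval included 0 for the genes of the 9 not named for it.

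Around the 9 genes stand the other receptors, kinases, STATs and IRFs of the pathway. Of the 23 genes in that list, 17 had a mean of at least 1 CPM, of which 12 were lower and 5 higher, with a median log2 ratio of -0.25, beside 51.3% lower and a median of -0.01 over all genes at that level. The largest changes at 10 CPM or more were all decreases. IL6ST, the signalling chain of the interleukin 6 family, had a log2 ratio of -0.99, and OSMR, the oncostatin M receptor, had -0.98. IL10RB, a chain of the interferon lambda and interleukin 10 receptors, had -0.89, and IL13RA1, a chain of the interleukin 13 receptor, had -0.67. IRF2 has been given above.

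IRF7, known as an amplifier of the type I response, stood at 6.89 CPM in control and 1.11 CPM in TGF-β1 cells, and its log2 ratio was -2.63 (-2.83 to -2.44). It was singled out after its values were seen, as were TYK2 and IFNLR1. IFNLR1, the other chain of the interferon lambda receptor, was higher, with a log2 ratio of 0.57 (0.47 to 0.67). Of 6 interferon genes searched, 3 were found by symbol, and IFNB1, IFNA1 and IFNW1 could not be counted. IFNG had 0 UMIs in either library, IFNE had 91 UMIs in control and 229 in TGF-β1 cells, and IFNK had 12 and 69.

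Of 11 negative regulators with at least 1 CPM, 5 were lower and 6 higher, where 51.3% of all genes at that level were lower, and their median log2 ratio was 0.03. SOCS3, a feedback inhibitor of cytokine receptors, had a log2 ratio of -0.51, and the phosphatases PTPN2, PTPN1 and PTPN11 had -0.12, 0.13 and 0.18. PIAS1, an inhibitor of STAT signalling, had 0.20. These were the largest changes at 10 CPM or more. Between 1 and 10 CPM, SOCS1 had 0.47 (0.33 to 0.60), USP18 had 0.41 (0.20 to 0.63) and PIAS3 had -0.01 (-0.11 to 0.09).

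The known targets of the pathway were mostly lower as well, where 51.3% of all genes with at least 1 CPM were lower and 3.46% more than 2-fold. Of 16 type I targets with at least 1 CPM, 14 were lower and 8 of these more than 2-fold, with a median log2 ratio of -1.01, which was -0.56 over the 8 with at least 10 CPM, beside -0.54 for the 6 of the 9 genes at that level. IFI35 had -1.59, PARP14 -1.13, ISG15, a ubiquitin-like modifier, -0.75, and RIGI, a sensor of viral RNA, -0.59, while SAMHD1, which depletes nucleotides, had 0.73. All 14 targets of interferon gamma with at least 1 CPM were lower and 7 were more than 2-fold lower, with a median of -1.13, or -1.45 over the 10 with at least 10 CPM. Leading them were the immunoproteasome subunits PSMB9 (-2.59), PSMB8 (-2.16) and PSMB10 (-2.07), the peptide editor TAPBPL (-2.29) and the proteasome activator PSME2 (-1.64). All these values are described beside the 9 genes and not tested against them.

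**Figure D5:**
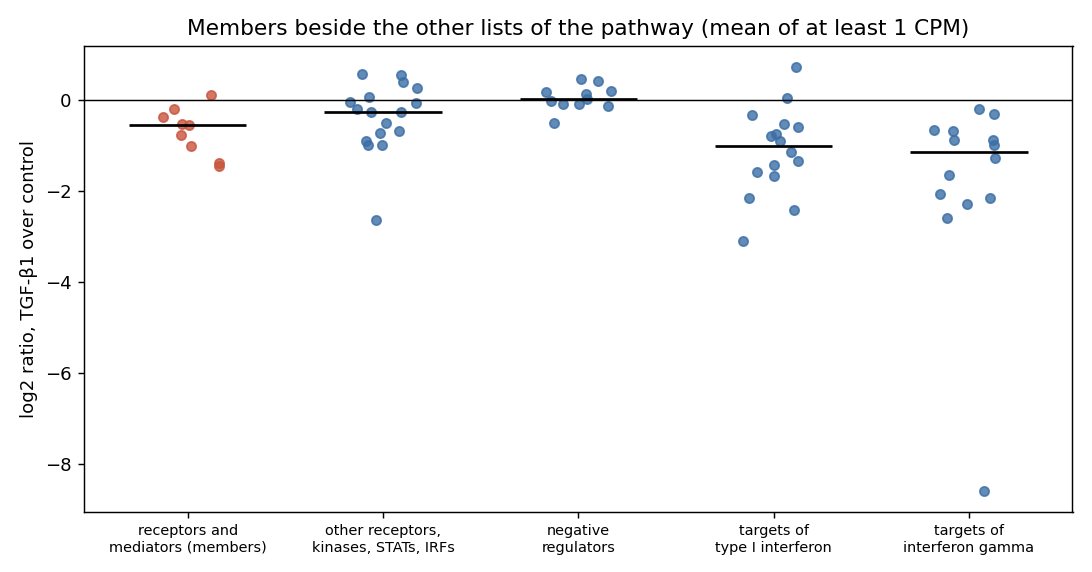
Change (log2, TGF-β1 over control) of the 9 genes (red) and the genes of 4 other lists of the pathway (blue) whose mean reached 1 CPM, with the median of each list as a line. Medians run from 0.03 for the negative regulators to -1.13 for the targets of interferon gamma, and the lowest point is VCAM1, which had 1473 UMIs in control and 4 in TGF-β1 cells.

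Cells with and without a target transcript were compared for the 3 transcription factors. IRF9 was found in 48.1% of the 262 thinned control cells with MX1, an antiviral GTPase, and in 35.6% of the 3603 without it. In TGF-β1 cells it was found in 27.7% of 206 with MX1 and 20.1% of 4307 without. The joint share over the product was 1.32 (1.10 to 1.57) and 1.35 (1.03 to 1.75). Over 29 targets in control the median of this ratio was 1.06 for IRF9, 1.04 for IRF1 and 1.05 for STAT2, and over 24 in TGF-β1 cells it was 1.03, 1.03 and 0.993. Its interval lay above 1 for 6 targets of 29 with IRF9, and for 2 each with IRF1 and STAT2, in control, and below 1 for STAT2 with VCAM1 (0.592, 0.339 to 0.961). In TGF-β1 cells it lay above 1 for 3 of 24 with IRF9 and for 1 each with IRF1 and STAT2, and below 1 for IRF9 with TAP1 (0.819, 0.668 to 0.993). MX1, shown here, is the target with the highest ratio to IRF9 in TGF-β1 cells. Such weak pairings in sparse counts are given as values only.

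Neighbouring genes were read from the RefSeq order of protein-coding genes on the TB-T2T assembly, which is not the build of the counts, so no positions are given. There IFNAR2, IFNAR1 and IFNGR2 stand side by side. The next gene, TMEM50B, had a log2 ratio of 0.05 (-0.01 to 0.11), beside -1.39, -0.54 and -1.44 for the 3 receptor genes. IRF9 stands between RNF31, with a log2 ratio of -0.25 (-0.37 to -0.12), and REC8, which was near 0 CPM, and PSME2 stands next to RNF31 with -1.64. Other genes within 2 places of a member went both ways, among them SLC22A4 by IRF1 (-1.08), TNFAIP3 by IFNGR1 (-0.95), AK3 by JAK2 (-0.88), RCL1 by JAK2 (-0.02) and CACHD1 by JAK1 (0.83). JAK1 overlaps RAVER2 on that assembly, and RAVER2 stood at 1.54 and 1.56 CPM, so few UMIs were counted there. IFNGR2 and STAT2 each overlap a long non-coding RNA gene on it, for which no value is given. These neighbours were looked up after the values could be seen.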

How the data were processed

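The authors deposited, for each library, a matrix of whole-number UMI counts, genes by barcodes, from Cell Ranger against EquCab3.0 and Ensembl annotation (7.1.0 in the submitters' notes, 8.0.1 in the file header). The counts were not normalized, and the barcode filters of the study had not been applied. Those filters were applied here. UMIs were summed per library in Python 3.11.15 (numpy 2.4.6, scipy 1.17.1, pandas 2.3.3), and intervals are exact binomial or Poisson at the 95% level. No ratio is given where both libraries hold 3 or fewer UMIs. Clusters were rebuilt in Seurat 5.3.0 (R 4.3.3) at resolution 0.5 on 30 dimensions of 2000 variable genes after canonical correlation integration. Thinning drew 20000 UMIs per cell without replacement.

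The 9 genes and all lists were chosen with earlier results of these data known. From each other list of the pathway the text names the 5 largest changes at 10 CPM or more, and the 3 most alike genes for each of the 6 members with at least 10 CPM. The negative regulators between 1 and 10 CPM were added after their values were seen. Of 27 type I and 24 interferon gamma targets, 22 and 20 were found by symbol. Genes were not tested, because each group is 1 library. The study removed doublets and assigned mares from reads, which was not repeated. MFGE8-treated cells were not analysed here, and 1 listed gene of the pathway is not reported by name. Promoter sequences were not used here, so the planned motif count was not run. Scripts were checked on data with known changes. Alternatives were other cell filters, scales, thinning depths and draws, and cluster settings.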

Additional observations from a re-analysis of the deposited data

Results flagged for a closer look

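The barcodes that the filters left out, 519 in control and 611 in the TGF-β1 library, enter comparisons only under the alternative cell filters. In them some of the 9 genes stood above the level in kept cells with counting intervals that exclude it. In control these were IFNAR2 at 11.1 CPM (8.0 to 15, beside 6.02 in kept cells) and JAK2 at 71.1 CPM (62.8 to 80.1, beside 40.8). In the TGF-β1 library they were JAK2 at 74.2 CPM (66.5 to 82.7, beside 28.3), IFNAR1 at 27.4 CPM (22.7 to 32.7, beside 18.9), IFNAR2 at 5.83 CPM (3.81 to 8.54, beside 2.30), STAT2 at 15.03 CPM (11.6 to 19.1, beside 9.79) and IRF1 at 8.30 CPM (5.84 to 11.4, beside 5.78). These values rest on 26 to 331 UMIs each. JAK2 in the left-out barcodes had overlapping intervals in both libraries, while in the kept cells it was lower after TGF-β1. Levels below those of the kept cells with intervals apart were found for IFNGR2 at 13.5 CPM (10.0 to 17.7, beside 19.8) and JAK1 at 94.0 CPM (84.5 to 104.3, beside 111.5), both in control.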

How the results depend on the processing

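No paired analysis was possible because no file used here ties cells to mares, which were pooled in each library. Over all other cell filters, scales and cluster weights, 81 of 81 log2 ratios of the 9 genes kept their direction and stayed within the counting interval of the reported value, and their median ran from -0.57 to -0.53. STAT2 ran from 0.07 to 0.13 and IRF9 from -1.06 to -1.0. The count of 2 genes more than 2-fold lower at 10 CPM became 4 genes more than 1.5-fold lower at 1 CPM when both limits were changed together, an alternative chosen after seeing the data. Shares depend on depth. At least 5 genes were seen in 3.98% of control and 0.798% of treated cells thinned to 10000 UMIs, and in 74.2% and 42.6% without thinning. Of 154 co-detection ratios, 146 moved by less than their counting interval. For STAT2 with IRF9 in TGF-β1 cells, 0.941 became 0.795 without the cells above the 90th percentile of UMIs, 1.18 at 10000 UMIs and 1.18 with another thinning draw. At 10000 UMIs the type II set went to 1.40 in control and 1.47 in TGF-β1 cells, the type I set to 0 in TGF-β1 cells, JAK1 with IFNGR1 in control to 1.04 and JAK1 with IFNAR1 in TGF-β1 cells to 1.06. The cause was not tested. Forming the product within each rebuilt cluster, also added after seeing the data, moved 0 of 22 ratios past their interval. Without replicates, the spread between mares, cultures and library preparations is not in any interval.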
